A study of Mus musculus with 9 samples.

Results

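The genes described are 7 alpha-defensins (*Defa3*, *Defa17*, *Defa21*, *Defa22*, *Defa24*, *Defa26* and *Defa30*), lysozyme 1 (*Lyz1*) and matrilysin (*Mmp7*), 9 of the 27719 genes counted in mouse colon. They were taken from the count table by symbol, as genes by which Paneth cells are known, after defensin reads had been noticed in libraries of treated mice, and all 9 were found. The choice rests on the defensin counts, which are therefore given as a description without a test. C57BL/6J mice made up 3 groups of 3. The control group drank distilled water. The DSS group drank 2.5% dextran sodium sulfate (DSS), which injures the colon epithelium, for 7 days. The DSS + EA group drank the same DSS and was also given electroacupuncture (EA), a weak current passed through needles, on both legs at ST36, an acupoint below the knee, with daily sessions of 30 minutes (2 Hz, 0.2 mA) on 5 days that followed 5 days of modeling. Mice of the other groups were restrained for 30 minutes without EA. Whole colon tissue of each mouse gave 1 library of full-length cDNA, which was amplified by PCR and read on an Oxford Nanopore PromethION, and the number of reads on each gene was deposited.

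Paneth cells sit at the base of the crypts of the small intestine and release granules that hold antimicrobial proteins. Alpha-defensins, called cryptdins in the mouse, are short cationic peptides that damage bacterial membranes. They are made as inactive precursors, which matrilysin cuts to the active peptide in mouse Paneth cells. Lysozyme 1 cleaves the bacterial cell wall and is the lysozyme of Paneth cells, while its neighbour *Lyz2* is the lysozyme of macrophages and neutrophils. Matrilysin is also made by injured epithelium outside Paneth cells. The normal mouse colon holds few or no Paneth cells.

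Between 2627695 and 4235576 reads were counted per mouse. Levels are given as CPM, counts scaled to a library total of 1000000 after adjustment by the TMM method, and 3 counts, the floor used here, correspond to between 0.647 and 1.14 CPM. DSS + EA mouse 2 and DSS + EA mouse 3 stood apart from the other 7 libraries in the summed level of exocrine pancreas genes. The 22 acinar pancreas genes of a marker list, digestive enzymes among them, summed to 55250 CPM in DSS + EA mouse 2 and 25360 CPM in DSS + EA mouse 3. DSS + EA mouse 1 had 1027 CPM, the control mice 878 to 2752 CPM and the DSS mice 57.0 to 171 CPM. All 22 genes had reads in DSS + EA mice 2 and 3 and 21 in DSS + EA mouse 1, against 6 to 14 in the control mice and 8 to 13 in the DSS mice. *Try5*, a trypsinogen gene, had 0 counts in every control mouse, 5, 1 and 0 in the DSS mice and 150, 22189 and 5711 in the DSS + EA mice. *Cela2a*, an elastase gene, had 1, 0 and 1 counts, then 2, 0 and 0, and then 256, 17601 and 8226. For these genes DSS + EA mouse 1 also lay above every control and DSS mouse, although its sum was within the range of the control mice. The control sums include *Clps* (705, 2109 and 659 counts) and *Cela1* (943, 787 and 309 counts). The part of these libraries in the results on the 9 genes was not tested, and values are given below with and without DSS + EA mouse 2 where they rest on it.

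The 28 alpha-defensin genes of the table lie together at chr8:21025545-21735471 of the GRCm38 build (GENCODE M21), a stretch of 709.9 kb with 23 genes on the plus strand and 5 on the minus strand. The 7 described here are protein-coding genes of 2 exons on the plus strand, each with a coding sequence of 282 bases. *Defa24* spans chr8:21734494-21735471, *Defa3* chr8:21287409-21288377, *Defa30* chr8:21134642-21135598 and *Defa22* chr8:21162277-21163249. *Defa21* spans chr8:21025545-21026516, *Defa17* chr8:21655780-21656735 and *Defa26* chr8:21618183-21618972. Over the 21 pairs of these 7 genes the coding sequences were 81.1% to 100% identical, with a median of 89.4%. The coding sequences of the 4 genes with the most reads among these 7 are printed from the GENCODE M21 transcripts, because their likeness bears on the gene to which a read is given. Capitals mark bases that differ from *Defa24* in an end-to-end alignment.
Defa24: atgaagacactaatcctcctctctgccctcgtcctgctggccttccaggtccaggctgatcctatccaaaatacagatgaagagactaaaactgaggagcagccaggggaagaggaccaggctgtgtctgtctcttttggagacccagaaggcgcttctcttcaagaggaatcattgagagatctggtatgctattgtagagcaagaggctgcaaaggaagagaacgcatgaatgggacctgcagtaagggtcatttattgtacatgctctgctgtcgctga
Defa3: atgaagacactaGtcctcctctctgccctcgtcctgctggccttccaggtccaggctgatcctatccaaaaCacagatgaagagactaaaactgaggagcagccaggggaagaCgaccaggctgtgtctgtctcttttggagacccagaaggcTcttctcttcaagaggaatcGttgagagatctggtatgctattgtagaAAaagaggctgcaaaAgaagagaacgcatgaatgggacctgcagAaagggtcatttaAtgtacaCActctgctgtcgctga
Defa30: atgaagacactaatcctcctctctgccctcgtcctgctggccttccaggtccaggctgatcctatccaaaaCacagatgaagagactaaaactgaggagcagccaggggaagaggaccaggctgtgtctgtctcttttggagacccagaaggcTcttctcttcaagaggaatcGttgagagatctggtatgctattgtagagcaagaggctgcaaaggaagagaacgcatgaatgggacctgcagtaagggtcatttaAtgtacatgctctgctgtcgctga
Defa22: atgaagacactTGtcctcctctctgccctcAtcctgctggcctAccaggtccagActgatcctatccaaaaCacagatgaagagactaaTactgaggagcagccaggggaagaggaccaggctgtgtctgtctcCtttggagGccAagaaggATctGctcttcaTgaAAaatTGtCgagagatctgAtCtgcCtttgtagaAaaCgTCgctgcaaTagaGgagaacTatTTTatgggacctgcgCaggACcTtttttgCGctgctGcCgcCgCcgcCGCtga
*Defa30* differed from *Defa24* at 4 bases (98.6% identity), *Defa3* at 12 bases (95.7%), and *Defa22* was 81.7% identical to it. The coding sequence of *Defa17* was 100% identical to that of *Defa3*, and *Defa21* was 99.3% identical to *Defa22*. Among all 378 pairs of the 28 genes, 6 pairs had identical coding sequences. In 5 of these pairs (*Defa3* and *Defa17*, *Defa23* and *Defa31*, *Defa2* and *Defa33*, *Defa36* and *Defa37*, and *Gm7861* and *Gm7849*) 1 gene held every read of DSS + EA mouse 2 and its partner held 0, and the sixth pair (*Defa20* and *Defa32*) held 0 throughout. How the authors' counting divided reads between such copies is not given in the sources used here, so the level of a single alpha-defensin gene is uncertain and the sum over the family less so.

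Alpha-defensin reads were found almost entirely in 1 library, that of DSS + EA mouse 2, and not across the treated libraries. Of 250 reads on the 7 genes in all 9 mice, 232 (92.8%) came from this mouse and 18 from the other 8 mice together. *Defa24* had 0, 4 and 0 counts in control mice, 2, 3 and 0 in the DSS mice and 1, 103 and 0 in the DSS + EA mice. *Defa3* had 0 in each control mouse, 2, 1 and 1 in the DSS mice and 1, 49 and 0 in the DSS + EA mice. Outside DSS + EA mouse 2 both genes therefore lay at or near the floor in every group.
*Defa30* had 0 counts in the control and DSS mice and 0, 41 and 1 in the DSS + EA mice. *Defa22* had 32 counts and *Defa21* 7 counts in DSS + EA mouse 2, and both had 0 in the other 8 libraries. *Defa17* had 2 counts in control mouse 2 and 0 elsewhere, and *Defa26* had 0 in all 9 libraries. For *Defa26* the floor of 3 counts allows up to between 0.647 and 1.14 CPM, depending on the mouse. *Defa17* was thus detected in an untreated mouse only, at a count under the floor.

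**Figure D1:**
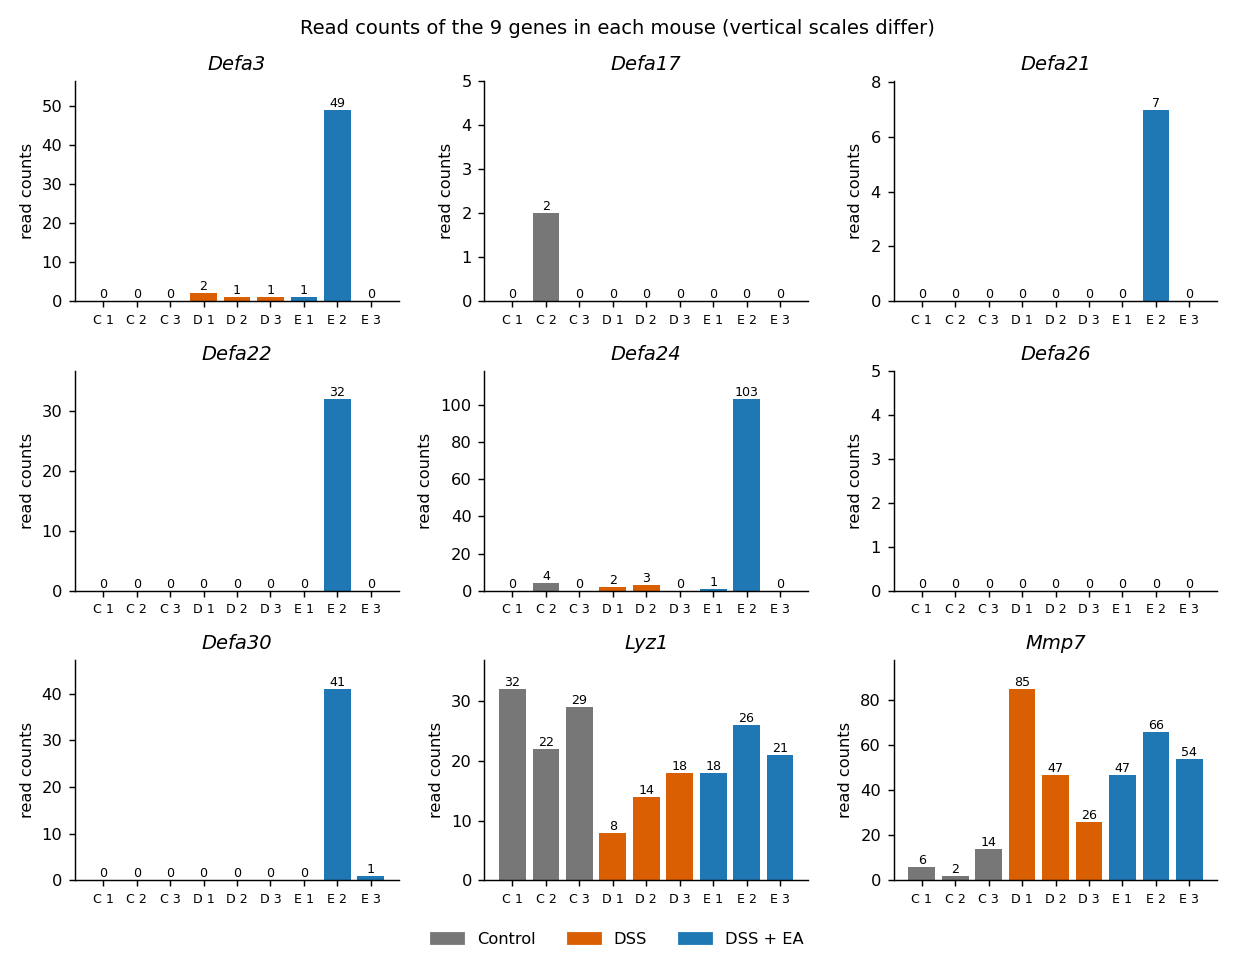
Read counts (vertical axis, with a scale of its own in each panel) of the 9 genes in control mice (C 1 to C 3), DSS mice (D 1 to D 3) and DSS + EA mice (E 1 to E 3). *Defa3*, *Defa21*, *Defa22*, *Defa24* and *Defa30* stand out in E 2 with 7 to 103 counts and have at most 4 in any other mouse, whereas *Lyz1* and *Mmp7* have reads in all 9 mice.

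The 7 genes summed to 0, 1.98 and 0 CPM in the control mice, 1.28, 0.862 and 0.310 CPM in the DSS mice and 0.604, 85.9 and 0.315 CPM in the DSS + EA mice. The ranges of the 3 groups overlapped, because DSS + EA mice 1 and 3 lay within the range of the control mice. In DSS + EA mouse 2, 81.6 of every 1000000 reads counted fell on these genes (Wilson 95% confidence interval 71.8 to 92.8), and the highest upper bound of the other 8 mice was 4.05, in control mouse 2. These intervals cover counting error only, since copies of 1 molecule made by PCR were counted separately. The DSS + EA group averaged 28.95 ± 49.35 CPM (SD, n = 3), an SD larger than the mean, and 0.467 CPM without mouse 2. The control group averaged 0.660 ± 1.14 CPM and the DSS group 0.816 ± 0.485 CPM (SD, n = 3 in each). None of the 7 genes had enough reads to pass the filter on low counts, so no fold change is given for them.

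The other 21 alpha-defensin genes of the cluster showed the same distribution over the mice. They held 162 reads in DSS + EA mouse 2, over 10 of the 21 genes, and 2 reads in all other mice, both in DSS mouse 2. *Defa2* and *Defa36* had 42 counts each in DSS + EA mouse 2, *Gm7861* (named *Defa43* in RefSeq) 32, *Defa23* 23 and *Defa29* 11. *AY761184* had 4 counts there, and *Defa5*, *Gm14851*, *Gm15292* and *Gm15293* had 2 each. Over all 28 genes, 394 of 414 reads (95.2%) belonged to DSS + EA mouse 2, 11 genes had over 3 counts in that mouse, and no gene had over 4 in any other. The remaining 20 reads fell to the control group (6), the DSS group (11) and the other DSS + EA mice (3), and 12 genes had 0 counts in all 9 libraries. *Defa24* took 26.1% of the alpha-defensin reads of DSS + EA mouse 2, and the transcripts of the 5 described genes found there were of nearly equal length, 398 to 419 bases.

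**Figure D2:**
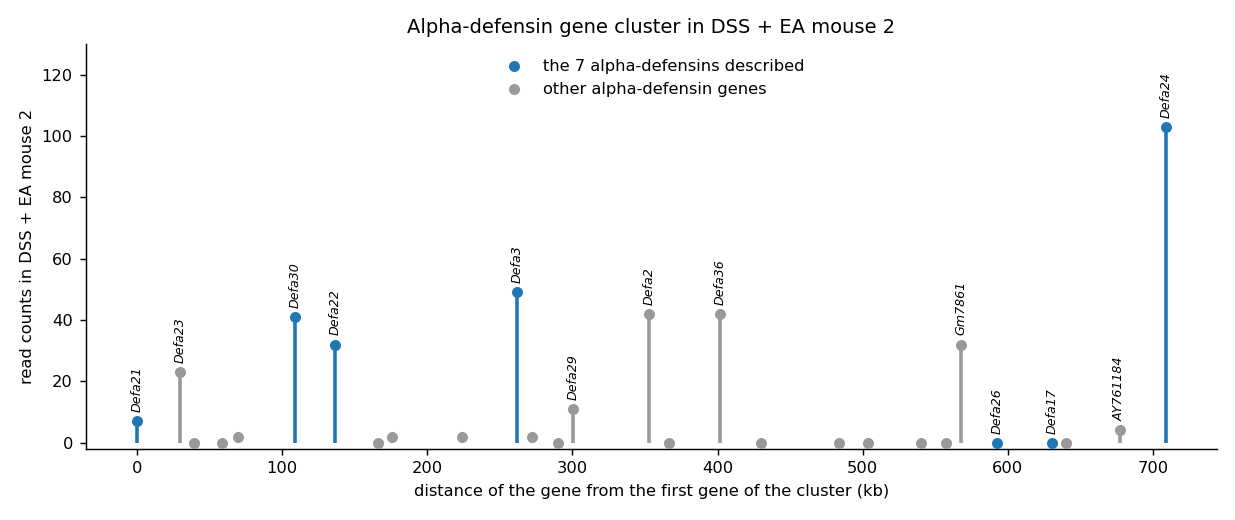
Read counts of the 28 alpha-defensin genes in DSS + EA mouse 2 (vertical axis) against the distance of each gene from the first gene of the cluster in kb (horizontal axis), with the 7 genes described in blue and the other 21 in grey. Genes with reads are spread over the whole cluster between genes at 0, and the highest, *Defa24* with 103 counts, lies at its far end.

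Promoter sequences of RefSeq (GRCm38.p6, from 250 bases before to 50 bases after the start of a gene) were given for 5 of the 9 genes, *Defa21*, *Defa22*, *Defa30*, *Lyz1* and *Mmp7*. The 2 that follow are shown because both genes had reads in DSS + EA mouse 2 and 0 or 1 elsewhere. Capitals mark the letters TATAAA, the classic TATA box, and CTTTGA, the core of sites bound by the Wnt effector Tcf4, each read on either strand (TTTATA and TCAAAG). The first lies at chr8:21162027-21162326 and the second at chr8:21134400-21134699, both on the plus strand.
Defa22 promoter: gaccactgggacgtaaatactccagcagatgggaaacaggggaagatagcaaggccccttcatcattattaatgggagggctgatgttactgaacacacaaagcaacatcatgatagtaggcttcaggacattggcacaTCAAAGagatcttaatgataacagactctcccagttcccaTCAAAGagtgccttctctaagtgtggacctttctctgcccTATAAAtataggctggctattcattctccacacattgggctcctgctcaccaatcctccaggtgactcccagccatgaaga
Defa30 promoter: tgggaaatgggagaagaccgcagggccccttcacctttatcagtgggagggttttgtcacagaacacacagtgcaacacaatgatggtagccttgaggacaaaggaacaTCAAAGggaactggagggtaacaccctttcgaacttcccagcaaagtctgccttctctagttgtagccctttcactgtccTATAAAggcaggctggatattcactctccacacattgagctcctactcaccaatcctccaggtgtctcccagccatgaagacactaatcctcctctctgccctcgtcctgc
The *Defa21* promoter was identical to that of *Defa22* over all bases given, and the 2 printed promoters were 66.9% identical to each other. TATAAA began 31 bases before the start of *Defa22* and 61 bases before that of *Defa30*. It was found in 15 of the 16 alpha-defensin promoters given, against 13.6% of all 32851 promoters, and CTTTGA in 13 of the 16, against 16.0%. CAGCTG, an E-box, which factors of the Atoh1 family bind, was found in 1 of the 16 (16.3% of all promoters), and TTTATG, a core bound by Cdx2, in 0 of the 16 (11.9% of all). The *Lyz1* promoter held CAGCTG but none of the other 3 motifs. TATAAA stood in 1 and CTTTGA in 2 of the *Mmp7* promoter windows given, and CAGCTG and TTTATG in 0. The Cdx2 core shares all but its last letter with the reverse strand of the TATA box. A match says only that these letters stand in the window.

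Genes whose distribution over the 9 mice was most like that of the summed 7 alpha-defensins were sought among 15525 other genes with at least 30 reads, by the overlap of the shares of CPM that each mouse holds. The points are 9 libraries, and a single library decides this measure, so it is given without a test. The closest were *Gm7861* (95.1% overlap), *Defa36*, *Defa2* and *ONT.6923*, a new locus found in the Nanopore reads with 45 counts in DSS + EA mouse 2 only (94.1% each). The next 6 belong largely to the exocrine pancreas. They were *Gm2663* (84.8%), *1810009J06Rik* (83.9%), *Try5* (82.5%), *Cuzd1* (82.1%), *Gp2* (78.4%) and *Pla2g1b* (78.2%). These 6 had reads in DSS + EA mouse 3 as well, with 479 counts of *Gp2* and 208 of *Pla2g1b*, whereas the 28 alpha-defensins had 1 count there. Set against 100000 reads of the pancreas list, alpha-defensin reads numbered 58.8, 264 and 1.24 in DSS + EA mice 1, 2 and 3. The same ratio was 0, 71.9 and 0 in the control mice and 746, 1519 and 544 in the DSS mice, where it rests on 4, 6 and 1 alpha-defensin reads against 536, 395 and 184 reads of the pancreas list. The ratio was thus highest in the DSS mice, whose counts of both kinds were low. Most of their reads of the pancreas list were of *Cela1* (285, 224 and 133 counts), a gene with reads in every control mouse as well. Their ratio therefore says little about alpha-defensin reads beside those of other acinar genes.

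Markers of the small intestine, where Paneth cells reside, were summed over a list of 18 genes. The sum in DSS + EA mouse 2 was above those of the DSS + EA mice 1 and 3. It was below those of the control mice only through *Fabp2*. The list sum came to 1386 to 2389 CPM in the control mice, 51.4 to 322 CPM in the DSS mice, and 720, 1056 and 563 CPM in DSS + EA mice 1, 2 and 3. Reads were found on 13 of the 18 in each control mouse, on 10 to 14 in the DSS mice and on 14, 17 and 12 in the DSS + EA mice, and *Onecut2* had 0 in every library. In the control and DSS + EA mice most of the sum came from *Fabp2*, a fatty acid carrier also abundant in the control colons, with 5112, 3817 and 5848 counts in control mice, 517, 81 and 0 in the DSS mice and 1508, 1775 and 1219 in the DSS + EA mice. The sums of the 9 mice stood in the order of their *Fabp2* levels, which were 1259 to 2224 CPM in the control mice. DSS + EA mice 1, 2 and 3 had 455.4, 657.5 and 383.6 CPM of it. That the sum of DSS + EA mouse 2 lay below those of the control mice is thus a statement about *Fabp2*, and the sum says little about the rest of the list. With *Fabp2* set aside, the rest of the list was highest in DSS + EA mouse 2 and next highest in DSS + EA mouse 1. *Fabp6*, the bile acid carrier of the ileum, had 33, 15 and 36 counts in control mice, 42, 12 and 14 in the DSS mice and 253, 412 and 87 in the DSS + EA mice. It was highest in DSS + EA mouse 2 and next highest in DSS + EA mouse 1, which had 2 alpha-defensin reads. *Rbp2*, a retinol carrier of enterocytes, had 139, 110 and 92 counts in control mice, 71, 37 and 9 in the DSS mice and 74, 176 and 94 in the DSS + EA mice, which is 65.2 CPM in DSS + EA mouse 2 and at most 36.3 CPM in any other. *Slc5a1*, the glucose transporter of the brush border, had 205, 158 and 120 counts in control mice, 161, 63 and 38 in the DSS mice and 285, 217 and 254 in the DSS + EA mice, and mouse 2 did not stand out. *Apoa1*, an apolipoprotein gene chosen with its values known, had 22 counts in DSS + EA mouse 2 and at most 7 elsewhere. The 13 colon epithelium genes summed to 15920, 19620 and 12910 CPM in the DSS + EA mice, so that all 3 libraries held colon epithelium. Their sum was 15990 to 32170 CPM in the control mice and 2631 to 12590 CPM in the DSS mice. Of the 10 other secreted products of Paneth cells in a second list, *Mptx2* had 2, 5 and 0 counts in control mice, 0 in every DSS mouse and 0, 2 and 0 in the DSS + EA mice. *Itln1* had 309, 1196 and 337 counts in control mice and 4, 18 and 2 in the DSS + EA mice. Control mouse 2 had more of both, and within the DSS + EA group both were highest in mouse 2. *Ang4* had 28 counts in that mouse, the lowest of the group, *Ang5* had 1 count, in control mouse 2, and *Ang6* had 0 in every library. The remaining 5 products, 4 *Reg3* genes and *Pla2g2a*, had 238 to 27857 counts in DSS + EA mouse 2, and their values in all mice follow below.

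**Figure D3:**
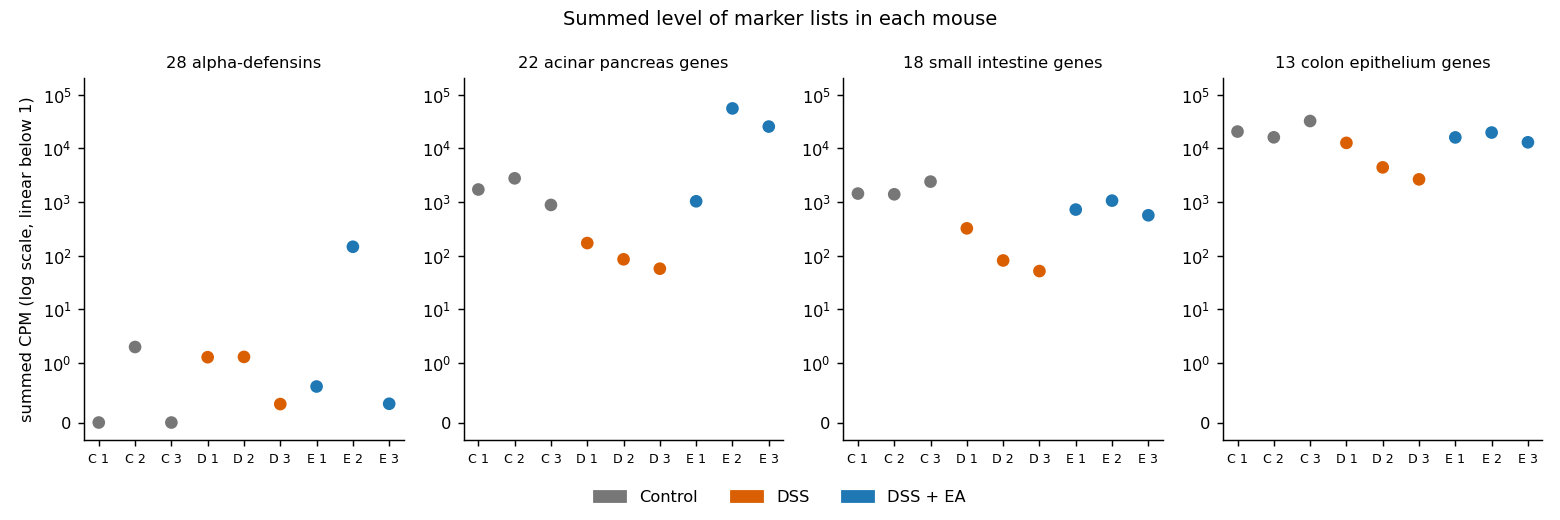
Summed CPM of 4 lists of genes (vertical axis, logarithmic above 1 and linear below) in each control mouse (C), DSS mouse (D) and DSS + EA mouse (E). Alpha-defensins are high in E 2 alone, the pancreas list in both E 2 and E 3, and the small intestine sums of the DSS + EA mice, largely *Fabp2*, lie between 563 and 1056 CPM.

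*Lyz1* was detected in every mouse and was lower with DSS. It lies at chr10:117287797-117292868 on the minus strand, is protein-coding and has 4 exons. The first 300 of the 447 bases of its coding sequence are printed with capitals at bases that differ from *Lyz2* or have no partner there, since reads with errors could be given to either gene.
Lyz1: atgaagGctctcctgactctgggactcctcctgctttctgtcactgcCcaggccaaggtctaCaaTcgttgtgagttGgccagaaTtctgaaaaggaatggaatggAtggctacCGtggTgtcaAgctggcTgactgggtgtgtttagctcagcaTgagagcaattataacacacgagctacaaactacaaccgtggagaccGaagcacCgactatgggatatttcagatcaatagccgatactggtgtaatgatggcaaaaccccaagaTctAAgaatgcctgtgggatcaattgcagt
Over the whole length the coding sequences were 95.1% identical in an alignment with gaps, with 20 capitals in all, of which 18 lie in the stretch printed, and the transcripts were 92.0% identical. *Lyz1* had 32, 22 and 29 counts in control mice, 8, 14 and 18 in the DSS mice and 18, 26 and 21 in the DSS + EA mice. Per mouse this is 8.07, 7.26 and 11.0 CPM, then 2.55, 3.02 and 5.57 CPM, and then 5.44, 9.63 and 6.61 CPM. Every control mouse lay above every DSS mouse, and the DSS + EA mice overlapped both groups. The log2 fold change with DSS was -1.24 (standard error, SE, 0.38, adjusted p = 0.0248 by the quasi-likelihood test of edgeR), from 8.78 ± 1.98 to 3.71 ± 1.63 CPM (SD, n = 3 in each). Of the 12566 genes tested in this comparison 40.9% were called, 21.5% higher and 19.5% lower, so that a call is common here. Of the 13 colon epithelium genes 8 were called lower and 0 higher, with a median log2 fold change of -1.86. A fall of this size was thus not particular to *Lyz1*. Leaving out control mouse 1, control mouse 3 or DSS mouse 2 gave adjusted p-values of 0.0509, 0.0795 and 0.0845 in the same edgeR fit, and the call was lost. In tissue, fewer cells of a type and less RNA per cell cannot be told apart. The DSS + EA group had 7.22 ± 2.17 CPM (SD, n = 3), or a log2 fold change of 0.96 (SE 0.38) against the DSS group and of -0.28 (SE 0.36) against the control group, given without a test because the genes were chosen on treated libraries. *Lyz1* in DSS + EA mouse 2, the mouse with the alpha-defensin reads, lay within the range of the control mice.

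*Lyz2* moved the other way, with 1083, 824 and 693 counts in control mice, 1959, 3294 and 4431 in the DSS mice and 1431, 1171 and 1466 in the DSS + EA mice. Its log2 fold change with DSS was 1.74 (SE 0.28, edgeR adjusted p = 0.00113). Of the 16 tested genes of the myeloid list, 15 were called higher with DSS, against 21.5% of all genes tested. *Lyz1* made up 2.87%, 2.60% and 4.02% of the reads of both lysozymes in the control mice. Its share was 0.407%, 0.423% and 0.405% in the DSS mice and 1.24%, 2.17% and 1.41% in the DSS + EA mice. The shares of the 3 groups did not overlap, and the DSS + EA mice lay between the other groups. The Wilson 95% intervals of the control mice (lowest bound 1.72%) and the DSS mice (highest bound 0.80%) did not overlap either, while that of DSS + EA mouse 1 began at 0.787%. Misassigned reads of *Lyz2* would enter this share, and their number was not measured.

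*Mmp7* was higher with DSS, and stayed above the control mice in the DSS + EA mice. It lies at chr9:7692090-7699585 on the plus strand and is protein-coding, with 6 exons. It had 6, 2 and 14 counts in control mice, 85, 47 and 26 in the DSS mice and 47, 66 and 54 in the DSS + EA mice. The levels were 1.51, 0.660 and 5.32 CPM in the control mice, 27.1, 10.1 and 8.05 CPM in the DSS mice and 14.2, 24.5 and 17.0 CPM in the DSS + EA mice. Every treated mouse of either group lay above every control mouse, and the DSS + EA mice lay within the range of the DSS mice. The log2 fold change with DSS was 2.64 (SE 0.67, edgeR adjusted p = 0.0112), from 2.50 ± 2.48 to 15.1 ± 10.5 CPM (SD, n = 3 in each), in a comparison in which 21.5% of genes tested were called higher. Without control mouse 1 the adjusted p-value was 0.0508 in the edgeR fit. The DSS + EA group had 18.6 ± 5.30 CPM (SD, n = 3), or a log2 fold change of 0.30 (SE 0.55) against the DSS group and of 2.95 (SE 0.67) against the control group, again without a test. *Mmp7* therefore had reads in the 8 mice with almost no alpha-defensin precursor reads as well as in DSS + EA mouse 2.

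**Figure D4:**
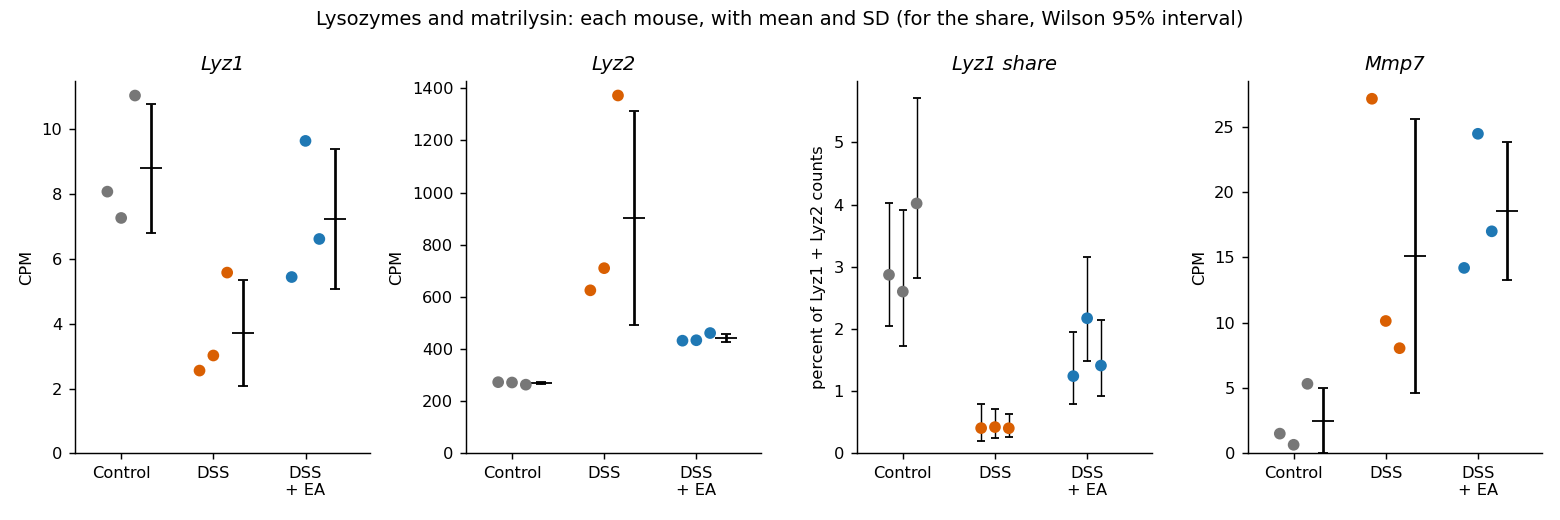
CPM of *Lyz1*, *Lyz2* and *Mmp7* and the share of *Lyz1* in the reads of both lysozymes, in percent (vertical axes), for each mouse of the 3 groups (points), with the mean and SD of each group (n = 3) beside the points or, for the share, the Wilson 95% interval of each mouse. The DSS mice have the lowest *Lyz1* share, 0.405% to 0.423%, and *Mmp7* is above every control mouse in all 6 treated mice.

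Other genes known from Paneth cells were examined as 2 lists of 33 genes, 10 secreted products and 23 genes of the formation and upkeep of the lineage, of which 22 passed the filter. Several of them, such as *Ang4*, *Itln1*, *Spdef* and *Spink4*, are also genes of goblet cells, so the lists are no measure of Paneth cells. *Spink4* had 21749 to 47321 counts in the control mice, where the 28 alpha-defensins had at most 6 reads. With DSS, 12 of the 22 were lower and 2 higher (63.6% called, against 40.9% of all genes tested), and their median log2 fold change was -1.24 against 0.02 over all genes tested. The 13 colon epithelium genes moved the same way with DSS, with 8 lower, 0 higher and a median of -1.86. In the DSS + EA group 6 of these 13 were higher and 0 lower than in the DSS group, with a median of 1.63. A fall with DSS was thus not particular to the Paneth cell lists. With EA, 4 of the 22 were higher and 0 lower than in the DSS group (18.2% called, against 35.5% of all genes), with a median of 0.78 against -0.02. At an unadjusted p under 0.05 the edgeR counts of that comparison were 7 higher and 1 lower, and DESeq2 called 6 higher and 0 lower. Between the DSS + EA and control groups 2 were higher and 2 lower (18.2% called, against 3.64% of all genes), with a median of -0.51 against 0.00. The first comparison had 9 calls without control mouse 1 in place of 14, the next had 10 without DSS mouse 1 in place of 4, and the third had 1 without control mouse 1 or DSS + EA mouse 3 and 2 without control mouse 2, in place of 4. Both EA comparisons and the DSS comparison share mice, and their values are set side by side only.

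Among the products, *Ang4* and *Itln1* were lower with DSS, *Pla2g2a* was higher, and *Reg3a* was higher in the DSS + EA group. *Ang4*, an antibacterial angiogenin, had 17290, 48299 and 13933 counts in control mice, 27, 578 and 6 in the DSS mice and 71, 28 and 150 in the DSS + EA mice. Its log2 fold change was -7.55 with DSS (SE 1.47, edgeR adjusted p = 0.00312) and -0.78 with EA against the DSS group (SE 1.14, edgeR adjusted p = 0.618). *Itln1*, an intelectin that binds microbial sugars, had 309, 1196 and 337 counts in control mice, 1, 15 and 1 in the DSS mice and 4, 18 and 2 in the DSS + EA mice, a log2 fold change of -7.07 with DSS (SE 1.02, edgeR adjusted p = 0.000661). In the control mice these products were thus abundant while alpha-defensins were at 0 to 6 reads, and goblet cells of the colon are known to make both.
*Pla2g2a* encodes a secreted phospholipase, but the annotation lists it as a polymorphic pseudogene and it is known to be disrupted in C57BL/6 mice, so its reads are no measure of the enzyme. It had 48, 68 and 12 counts in control mice, 407, 570 and 367 in the DSS mice and 242, 238 and 407 in the DSS + EA mice. It rose by 3.22 with DSS on the log2 scale (SE 0.45, edgeR adjusted p = 0.000591), and these 3 calls with DSS were kept in all 9 fits that left out a mouse. Against the control group, the DSS + EA group was still lower for *Ang4* (edgeR adjusted p = 0.0168) and *Itln1* (adjusted p = 0.00874) and higher for *Pla2g2a* (adjusted p = 0.00874). When single mice were left out, these adjusted p-values reached 0.0788 and 0.0596 without DSS + EA mouse 3 and 0.0717 without control mouse 1, in that order, and *Ang4* was not called in 5 of the 9 fits.

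The *Reg3* genes encode secreted lectins that bind bacteria and are made by many epithelial cells of the gut and, under stress, of the pancreas. *Reg3a* had 3, 0 and 7 counts in control mice, 7, 1 and 0 in the DSS mice and 47, 1397 and 2214 in the DSS + EA mice, a log2 fold change of 9.03 with EA against the DSS group (SE 1.56, edgeR adjusted p = 0.00254). *Reg3d* had 0 counts in the control and DSS mice and 5, 261 and 281 in the DSS + EA mice. Both were highest in DSS + EA mice 2 and 3, the libraries with 149156 and 80581 reads of the pancreas list against 3402 in mouse 1, and the part of those reads was not tested. *Reg3b* had 561, 100 and 2936 counts in control mice, 41783, 426 and 83 in the DSS mice and 75698, 27857 and 40541 in the DSS + EA mice. Its log2 fold change was 3.38 with DSS (SE 1.91, edgeR adjusted p = 0.181) and 1.77 with EA (SE 1.79, edgeR adjusted p = 0.460). DSS mouse 1 lay far above the other DSS mice and decides both values. This mouse differed in other lists as well, with a myeloid sum of 3859 CPM against 24880 and 27290 CPM in DSS mice 2 and 3. Its colon epithelium sum was 12590 CPM, against 4403 and 2631 CPM in those 2 mice. Without DSS mouse 1 the log2 fold change of *Reg3b* was -2.89 with DSS, not called, and 8.05 with EA against the DSS group (edgeR adjusted p = 0.00396). *Reg3g* had 236, 58 and 754 counts in control mice, 12773, 112 and 22 in the DSS mice and 19302, 5566 and 12316 in the DSS + EA mice. With all mice its log2 fold change was 3.49 with DSS (SE 1.85, edgeR adjusted p = 0.156) and 1.52 with EA (SE 1.71, edgeR adjusted p = 0.509). Without DSS mouse 1 the log2 fold changes of *Reg3g* were -2.97 with DSS (edgeR adjusted p = 0.0453) and 7.99 with EA (edgeR adjusted p = 0.00166). It was called in neither comparison with all mice.

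Among the 16 tested genes of the lineage, 10 were lower with DSS (19.5% of all genes tested were) and 1, *Atg16l1*, higher (21.5% of all), and 3 were higher with EA than in the DSS group (17.2% of all genes tested). The last count, 18.8% of the 16, is near that of all genes. *Atoh1*, the transcription factor that directs crypt cells to the secretory lineages, had 147, 95 and 101 counts in control mice, 0, 2 and 0 in the DSS mice and 99, 73 and 105 in the DSS + EA mice. The ratio to the DSS group was 196 in the control group (exact 95% counting interval 53.8 to 1625) and 166 in the DSS + EA group (45.5 to 1376), with adjusted p-values of 1.61e-05 and 0.00011 in the edgeR fit. The intervals pool the reads of each group and cover counting error only, without the spread between mice, and all DSS reads were in DSS mouse 2. *Spdef*, a factor that acts after *Atoh1* in goblet and Paneth cells, had 185, 118 and 150 counts in control mice, 21, 30 and 7 in the DSS mice and 123, 86 and 72 in the DSS + EA mice. It fell by 3.19 with DSS on the log2 scale (SE 0.38, edgeR adjusted p = 0.000254) and rose by 2.56 with EA (SE 0.38, edgeR adjusted p = 0.00129). For both factors the DSS mice lay below every mouse of the other groups, and DSS + EA mouse 2 did not stand out among the DSS + EA mice.
*Spink4*, a protease inhibitor of goblet and Paneth cells, had 27575, 47321 and 21749 counts in control mice, 7691, 3580 and 923 in the DSS mice and 19609, 13062 and 19679 in the DSS + EA mice. Its log2 fold change was -3.13 with DSS (SE 0.67, edgeR adjusted p = 0.00507) and 2.27 with EA (SE 0.65, edgeR adjusted p = 0.0224), the latter not called without DSS mouse 2 (adjusted p = 0.0819), DSS + EA mouse 1 or DSS + EA mouse 3. *Reg4* (-4.26), *Kit* (-1.92), *Fgfr3* (-2.07), *Agr2* (-2.12), *Sox9* (-1.07), *Fzd5* (-1.31) and *Dll4* (-1.30) were the other genes lower with DSS, by log2 fold change. Within the colon crypt *Kit* and *Reg4* mark cells that support stem cells, and *Sox9* and the Wnt receptor gene *Fzd5* are needed for Paneth cells to form or mature. The libraries are of whole colon tissue, so the cells that gave the reads of these genes, and of *Dll4*, are not known. The calls of *Sox9*, *Fzd5*, *Dll4*, *Fgfr3* and *Agr2* were lost in 3, 6, 6, 1 and 2 of the 9 fits that left out a mouse, where the highest adjusted p-values were 0.0659, 0.109, 0.0874, 0.0771 and 0.0744. *Sox9* was lost without control mouse 1, control mouse 2 or DSS mouse 3, *Fgfr3* without control mouse 1, and *Agr2* without control mouse 3 or DSS mouse 2. *Dll4* was lost without any single control or DSS mouse, and *Fzd5* without any control mouse, DSS mouse 2, DSS mouse 3 or DSS + EA mouse 1. *Atg16l1*, an autophagy gene whose loss disturbs Paneth cell granules, was higher with DSS by 0.64 on the log2 scale (SE 0.19, edgeR adjusted p = 0.0246) and reached an adjusted p-value of 0.109 without control mouse 2; it was also not called without control mouse 1 or DSS mouse 2. *Xbp1*, *Ephb2*, *Tcf7l2*, *Kcnn4* and *Tgfa* were not called with all mice, with log2 fold changes with DSS between -1.17 and -0.65. *Xbp1* was called lower without DSS + EA mouse 1 (adjusted p = 0.034 in edgeR), *Ephb2* (0.0383) and *Kcnn4* (0.0365) without DSS mouse 2, and *Tcf7l2* (0.0377) without DSS mouse 1.
Of the 7 genes of this list with too few reads to be tested, *Bhlha15*, a factor of secretory cells, had 4, 8 and 5 counts in control mice, 1, 0 and 0 in the DSS mice and 1, 1 and 3 in the DSS + EA mice. *Gfi1*, which acts below *Atoh1*, had 5, 4 and 3 counts, then 0, 5 and 2, and then 3, 1 and 1. *Nod2*, the receptor for a bacterial cell wall fragment, had 0 in every control mouse, 2, 6 and 2 in the DSS mice and 5, 2 and 4 in the DSS + EA mice. *Wnt3*, which Paneth cells supply to stem cells, had 1 count, in DSS + EA mouse 3. *Ephb3*, a receptor that keeps Paneth cells at the crypt base, had 5, 6 and 1 counts in control mice, 0, 3 and 1 in the DSS mice and 2, 2 and 1 in the DSS + EA mice. *Egf*, a growth factor that Paneth cells release, had 5, 1 and 2 counts, then 0, 0 and 1, and then 0, 4 and 0, so that within the DSS + EA group its reads were in mouse 2 alone. *Dll1*, a Notch ligand of secretory cells, had 9, 4 and 6 counts, then 6, 39 and 17, and then 8, 4 and 8.

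**Figure D5:**
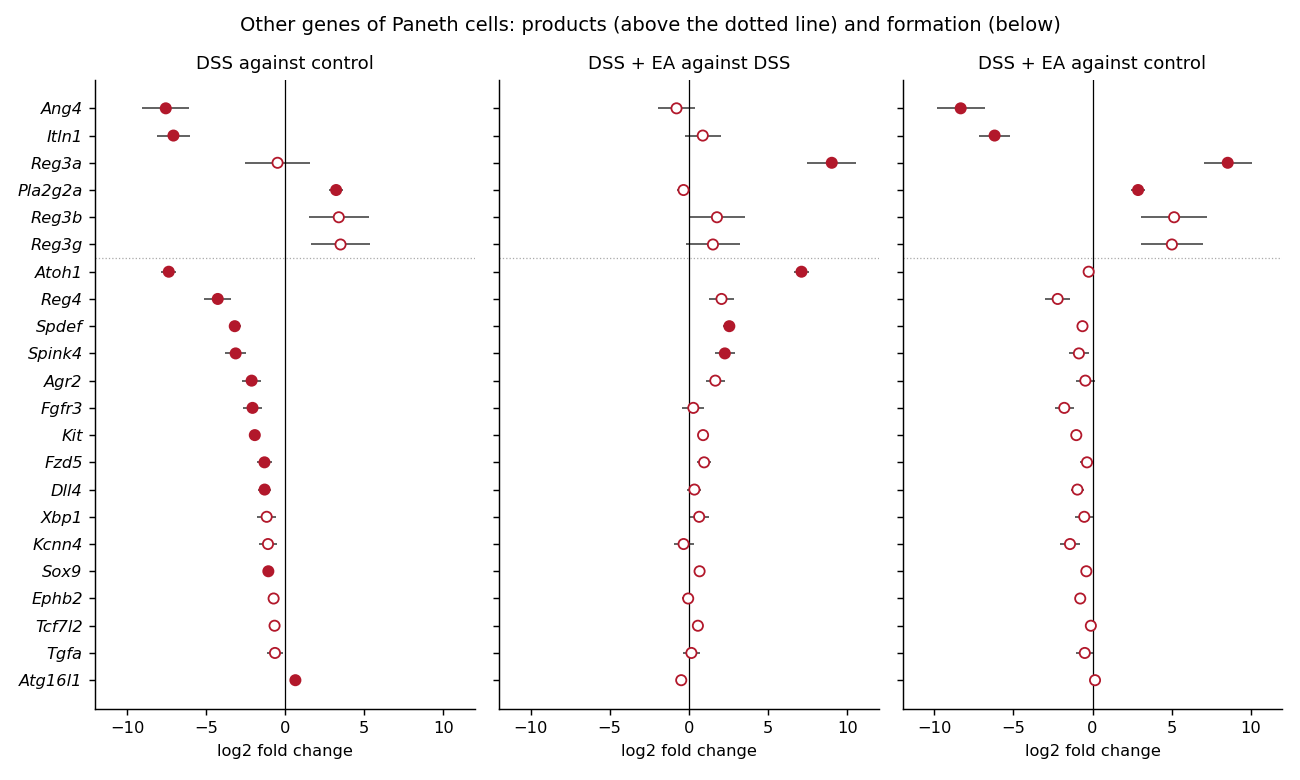
Log2 fold change (horizontal axis) of the 22 tested genes of the Paneth cell lists in the 3 comparisons, with bars of 1 standard error and filled points for an adjusted p under 0.05 in edgeR's quasi-likelihood test. With DSS most points lie left of 0, *Atoh1*, *Spdef*, *Spink4* and *Reg3a* are filled with EA against the DSS group, and *Ang4*, *Itln1*, *Pla2g2a* and *Reg3a* against the control group.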

How the data were processed

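Colon RNA of 9 mice was measured, 1 library per mouse and 3 mice per group by the labels. The authors deposited raw counts, the whole number of reads on each gene, from Oxford Nanopore cDNA-PCR sequencing. The labels name the genome build mm10, and the aligner, the counting tool, the annotation and the use of strand are not given in the sources used here. Of 27733 lines, 14 hold no counts and were skipped.

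The test was the quasi-likelihood F test of edgeR 4.0.16 in R 4.3.3 with TMM, filterByExpr and a prior count of 0.125, in one model of all 9 libraries without covariates. It kept 12566 genes, among them 2 of the 9 genes described, and a call is a Benjamini-Hochberg adjusted p under 0.05. Standard errors are the log2 fold change divided by the square root of F. CPM, shares and figures were made in Python 3.11.15 with pandas 2.3.3, scipy 1.17.1 and matplotlib 3.10.9. Positions and transcripts come from GENCODE M21 and promoters from RefSeq. The functions were tested on simulated counts.

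The genes described, the marker lists and the tests were chosen with earlier results of these data known. The genes named are the 9, those of the Paneth cell lists with reads, at most 4 of each other list with the highest mean level in the DSS + EA group together with its genes at 0, and the 10 most like the summed alpha-defensins. Beyond this rule the other alpha-defensins with reads, *Apoa1*, *Cela1*, *Clps* and beta-defensins were named with their values known. With 3 mice against 3 no exact test of a single value reaches 0.05, so p-values come from the fit across all genes. The alternatives were DESeq2 1.42.0 with its size factors, RLE normalization, library totals, no filter, a filter at a mean of 20 counts, a fit of the 2 compared groups alone, the thresholds of the study's methods (log2 fold change over 2.5 and unadjusted P under 0.01), a prior count of 2, the replicate number as a block, and each mouse left out in turn. Other measurements of the study were not analysed here.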

Additional observations from a re-analysis of the deposited data

How the results depend on the processing

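The direction of *Lyz1* and *Mmp7* with DSS was the same under every alternative tried. *Lyz1* did not pass the thresholds of the study's methods at its log2 fold change of -1.24, and lay between -1.62 and -1.07 with each mouse left out, called in 6 of these 9 fits. *Mmp7* lay between 1.91 and 3.67 and was called in 8. The summed alpha-defensins of the DSS + EA group averaged between 0.467 CPM (without mouse 2) and 42.7 CPM with a mouse left out, so that the group value rests on 1 library. Calls among the Paneth cell lists numbered 9 to 16 with DSS, 3 to 10 with EA against the DSS group and 1 to 6 against the control group when a mouse was left out. They numbered 7 with DSS under the thresholds of the study's methods, which ask for a larger fold, 7 with EA against the DSS group without a filter, and 7 against the control group with only those 2 groups in the fit. With the replicate number as a block the calls were 13, 4 and 4, *Lyz1* was at -1.28 (adjusted p = 0.029, edgeR) and *Mmp7* at 2.61 (adjusted p = 0.0279, edgeR). Same-numbered mice are different animals and their deviations from the group means correlated between -0.16 and 0.105, other pairs between -0.204 and 0.256, so the numbers do not pair the samples and no call of *Lyz1* or *Mmp7* changed. Under RLE normalization, library totals, DESeq2 and a mean of at least 20 counts, counts of calls stayed within 1.5 times. Reads of the alpha-defensins outside DSS + EA mouse 2 lie at the depth limit of 3 counts.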

Other observations

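Beta-defensins, the related peptides that many epithelia make, were looked up after their values were seen. Of 43 beta-defensin genes in the table, 33 had 0 counts in all 9 libraries and 3 could be tested. *Defb37* had 74, 12 and 128 counts in control mice, 10, 0 and 0 in the DSS mice and 26, 52 and 11 in the DSS + EA mice, a log2 fold change of -4.58 with DSS (SE 1.24, edgeR adjusted p = 0.015), not called without control mouse 3 or DSS mouse 2. *Gm15056* had 0, 0 and 1 counts in control mice, 8, 44 and 27 in the DSS mice and 9, 9 and 11 in the DSS + EA mice (edgeR adjusted p = 0.000906 with DSS). *Defb45*, with 33, 18 and 2 counts, then 34, 25 and 15, and then 13, 12 and 22, was not called. In this comparison 40.9% of all genes tested were called. *Defb1* had 0 counts in every control mouse, 7, 6 and 6 in the DSS mice and 0, 1 and 2 in the DSS + EA mice, and *Defb50* had 0 in every control mouse, 6, 3 and 5 in the DSS mice and 0, 1 and 0 in the DSS + EA mice. The beta-defensin sum was 28.2 CPM in DSS + EA mouse 2 and between 10.2 and 53.6 CPM in the control mice, so that these genes did not share the distribution of the alpha-defensins.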
